A study of Rattus norvegicus with 24 samples.

Results

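The right tibialis anterior muscles of 12 rats, the unstimulated contralateral controls of a training experiment, were compared with one another: the 3 muscles taken after 2 days against the 9 taken after 10, 20 and 30 days, 3 at each. They are 12 of the 24 libraries of the series, chosen by leg and day, and all 20027 transcripts of the deposited table were carried through the comparison. The animals were adult male Wistar rats with no altered allele. In all 12 animals an implanted pulse generator stimulated the left hind limb once a day, so that the left muscle was trained (SpillOver resistance training) and each right muscle, on any day, came from an animal with surgery, an implant and a trained left leg. The tibialis anterior is a fast dorsiflexor of the ankle. RNA came from a piece of the muscle tissue left after the mid-belly had been cut out for histology. It holds vessels, nerve, blood and connective tissue as well as fibres. Both legs were taken shortly after the last bout. Each day is a different set of animals, and nothing in the labels ties animals of different days together. Training began after a fixed recovery from surgery, so day 2 muscles were also taken sooner after surgery than later ones. Time since surgery and days of left-leg training follow the same split as the animals, and these cannot be told apart.

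The split between day 2 and the later days was drawn with results of these data already known. For single genes, differences across it in the contralateral muscles are therefore given as values, without a p. Counts of transcripts that passed there, or between the legs, are given as a description. P-values of single genes are given for the left, trained muscles of the same animals, which the split did not use. They are otherwise given only for the later days among themselves. The legs share an animal, and their deviations from the group means correlated (median r 0.143, 12 pairs). For genes picked by their contralateral difference, the trained p-values are therefore not independent of that choice. Values are treated as TPM-type, since every library adds up to the same total, and were then divided by a median-of-ratios factor. The equal totals alone do not show scaling for transcript length, so levels can be set side by side between genes only if that holds. The values keep no read depth, so how precise each one is from sequencing alone is not known. Log2 differences are day 2 minus later days on log2(value + 1), with the standard error (SE) of a limma fit, a scale that understates the change of low transcripts.

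The genes that stood farthest apart belong to the circadian clock. In this feedback loop the activators Arntl (also called Bmal1) and Clock, or Clock's relative Npas2, bind E-boxes and switch on their own repressors, the Per, Cry and Nr1d genes and Ciart, together with output factors such as Dbp, Tef and Hlf, which bind D-boxes. The Nr1d proteins in turn hold down Arntl at ROR elements, where Rora activates it. Repressors and outputs thus peak at another time of day than Arntl, and skeletal muscle runs this loop in its fibres. The stretches of 250 bases before the start of 4 of these genes are printed because their products sit at the different positions of the loop and because their levels differ most between day 2 and later days, Per2 standing for the period genes. Sequences and coordinates are those of RefSeq on GRCr8, each written 5′ to 3′ on the gene's own strand, with the E-box CACGTG, the D-box TTATGNAA and the ROR element TAGGTCA or TGGGTCA, searched on both strands, in capitals. The windows lie at chr1:176766078-176766327 on the plus strand for Arntl, chr2:186112247-186112496 on the minus strand for Ciart, chr9:99496994-99497243 on the minus strand for Per2 and chr1:105312006-105312255 on the plus strand for Dbp.
Arntl: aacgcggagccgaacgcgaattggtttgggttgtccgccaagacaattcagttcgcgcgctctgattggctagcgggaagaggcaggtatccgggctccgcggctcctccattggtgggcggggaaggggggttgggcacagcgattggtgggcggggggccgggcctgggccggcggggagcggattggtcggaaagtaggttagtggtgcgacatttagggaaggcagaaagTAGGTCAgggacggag
Ciart: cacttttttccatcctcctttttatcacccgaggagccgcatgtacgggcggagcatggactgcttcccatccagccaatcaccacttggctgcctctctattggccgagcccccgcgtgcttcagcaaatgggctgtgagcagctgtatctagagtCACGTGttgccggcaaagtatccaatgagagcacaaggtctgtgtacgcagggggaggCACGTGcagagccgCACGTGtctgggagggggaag
Per2: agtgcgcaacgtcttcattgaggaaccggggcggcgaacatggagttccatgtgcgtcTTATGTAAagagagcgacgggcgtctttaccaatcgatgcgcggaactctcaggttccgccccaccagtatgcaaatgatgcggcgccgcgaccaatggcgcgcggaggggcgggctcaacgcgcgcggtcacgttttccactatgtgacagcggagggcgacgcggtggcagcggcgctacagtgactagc
Dbp: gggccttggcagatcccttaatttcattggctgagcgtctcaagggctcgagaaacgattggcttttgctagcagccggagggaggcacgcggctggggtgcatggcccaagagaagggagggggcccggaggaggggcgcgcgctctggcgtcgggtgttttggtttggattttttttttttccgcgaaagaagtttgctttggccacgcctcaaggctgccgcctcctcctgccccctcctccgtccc

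The Arntl window holds 1 ROR element, whose first base lies 16 bases before the start. Ciart has 3 E-boxes, at 93, 35 and 21 bases. Per2 has 1 D-box, at 192 bases, and these letters are not in the Dbp window. Of all 33469 windows of this length in the RefSeq table, 5.59% hold the E-box, 3.28% the D-box and 5.62% the ROR element. Of the 23 clock genes listed here, 19 had a window, and besides Ciart an E-box was found in those of Nr1d1, Bhlhe40, Bhlhe41 and Tef, and a D-box in that of Coq10b. A match of letters is a description and not a site shown to be bound.

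A transcript was tested if 3 or more of the contralateral muscles reached 1 for it. Of 12445 such transcripts, 8 passed an adjusted p of 0.05 (0.0643%), 3 of them higher (0.0241%) and 5 lower (0.0402%) on day 2, and 1425 had an unadjusted p under 0.05. In 323 transcripts (2.6%) the 3 day 2 values lay wholly outside the range of the 9 later ones, 202 above it (1.62%) and 121 below it (0.972%). The median log2 difference over all tested was 0.01, and in 47 transcripts the difference was at least 1 in size. Among the 8 are Dbp-201, Dbp-202 and Ciart-201 on the higher side, and Arntl-201, Dyrk2-201, Clec11a-201 and the unnamed AABR07044759.1-201 on the lower side. Of 24 alternative settings, 22 kept the call of Ciart-201 and 21 that of Arntl-201. Only 12 kept that of Dbp-201, 10 AABR07044759.1-201, 8 Dyrk2-201, 7 Clec11a-201 and 6 Dbp-202. Since the split was chosen from such results, nothing is read from these counts. Of the transcripts without overlap named below, Npas2, Clec11a, Col14a1 and Sfrp4 reached 1 in later muscles only, and Ciart in the 3 of day 2 and 2 others, so each was tested only because of the group where it was high. Without the third day 2 muscle no transcript passed (limma, 1463 at an unadjusted p under 0.05), and without the third muscle of day 10, 28 did. Leaving out the first muscle of day 2 left 2, the first and second of day 10 left 3 and 4, the first of day 20 left 4, the second of day 30 left 3 and the third of day 30 left 4.

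Dbp, a D-box factor and a classical readout of the clock, was highest of all. Its main transcript (Dbp-201, ENSRNOG00000021027, chr1:101687855-101692847 in Rnor_6.0, the build of the table) measured 24.9, 16.2 and 39.1 in the day 2 contralateral muscles. On day 10 it measured 1.36, 0.254 and 1.76, on day 20 2.27, 6.48 and 5.50, and on day 30 1.66, 1.58 and 3.17. The lowest day 2 muscle stood above the highest later one, and the means, 26.7 and 2.67, differed 10.0-fold. The log2 difference was 3.02 ± 0.44 (SE, n = 3 and 9). Its second transcript, Dbp-202, with 13.6, 9.54 and 18.3 on day 2 against 2.24 to 6.02 later, differed by 1.45 ± 0.23.

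Ciart, a repressor that acts on the Arntl and Clock pair, was low in the later muscles. Ciart-201 (ENSRNOG00000042717, chr2:197987705-197991199) read 3.38, 4.93 and 3.91 on day 2. Later values were 1.01, 1.05 and 0.402 on day 10, 0, 0.160 and 0.439 on day 20, and 0.743, 0.252 and 0.311 on day 30. All day 2 values exceeded all later ones, with a log2 difference of 1.80 ± 0.20.

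Arntl, the activator, went the opposite way. Arntl-201 (ENSRNOG00000014448, chr1:178039063-178137466) measured 2.68, 4.70 and 1.90 on day 2. It was 9.83, 13.5 and 13.4 on day 10, 10.1, 10.2 and 7.84 on day 20, and 9.53, 11.3 and 10.8 on day 30. No day 2 value reached the lowest later one, the later mean was 3.46-fold the day 2 mean, and the log2 difference was -1.56 ± 0.19.

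**Figure D1:**
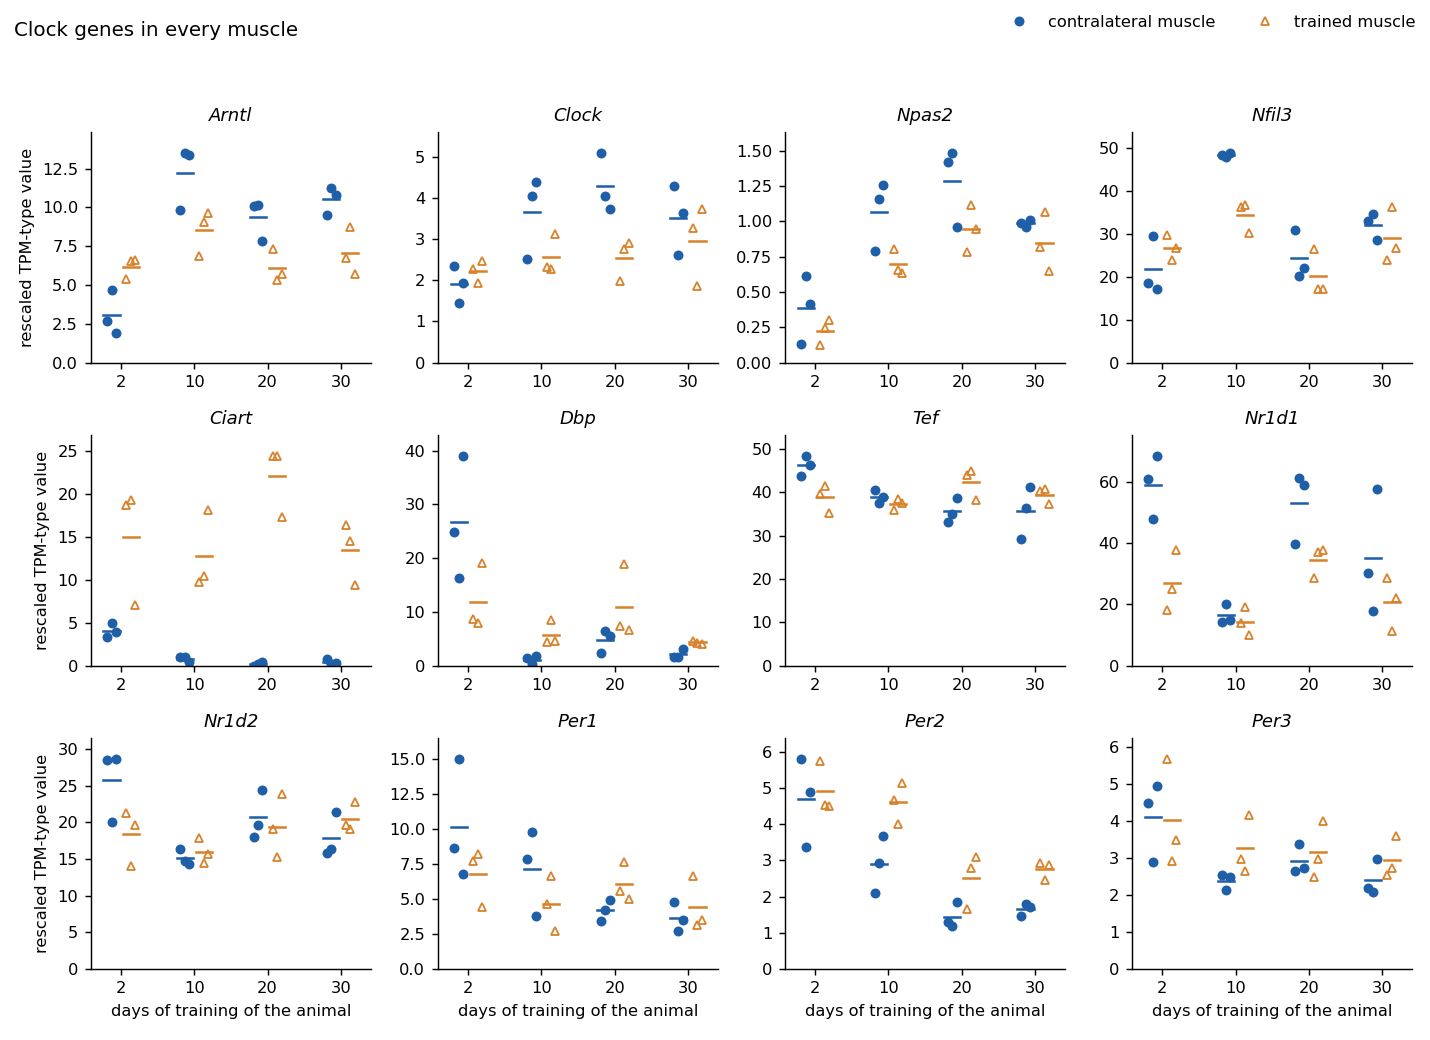
Rescaled TPM-type value of 12 clock genes in every muscle by days of training, blue circles for contralateral and orange triangles for trained muscles of the same animals, with bars at the mean of 3. Contralateral Arntl, Clock and Npas2 are lowest on day 2, contralateral Dbp and Ciart highest, and the trained muscles show smaller steps or none at the same place, Npas2 excepted.

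The activating arm was lower on day 2. All 5 listed members had a difference below 0 (median -0.63, against 0.02 over 1 transcript for each of 10418 genes tested), and 3 of the 5, Arntl, Clock and Npas2, did not overlap (1.08% of those genes lay wholly below), Npas2 being tested only through its later values. Clock, Arntl's partner, measured 2.34, 1.45 and 1.95 on day 2 and 2.52 to 5.10 later, a log2 difference of -0.72 ± 0.16 (-0.42 with values summed per gene). Npas2, Clock's relative, measured 0.133, 0.613 and 0.415 against 0.792 to 1.49, a difference of -0.62 ± 0.12. Nfil3, a repressor at D-boxes grouped here with the arm because its level follows that of Arntl, gave 18.6, 29.5 and 17.2 on day 2. Its later muscles ran from 20.2 to 48.9 and those of day 10 stood together at 48.4, 47.9 and 48.9. The second day 2 muscle stood above 2 muscles of day 20 and 1 of day 30, and the difference was -0.63 ± 0.27. Rora, an activator at ROR elements, overlapped widely with -0.26 ± 0.23.

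Among the 10 repressors the direction was mostly opposite. In 8 the difference was above 0, the median was 0.55, and Ciart alone did not overlap (1.81% of all genes lay wholly above). The period genes were all higher. Per2 measured 5.81, 3.37 and 4.89 on day 2 and 1.18 to 3.67 later (0.94 ± 0.22), where the single overlap was 1 muscle of day 10 above the lowest of day 2. Per1 measured 8.64, 15 and 6.76 against 2.70 to 9.82 (0.91 ± 0.30), and Per3 4.47, 2.87 and 4.95 against 2.08 to 3.38 (0.50 ± 0.14). For Per1 and Per2 the overlapping muscles were those of day 10, whereas days 20 and 30 lay below every day 2 muscle.

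Nr1d1, the nuclear receptor also called Rev-erb alpha, took another course. It measured 60.7, 47.7 and 68.4 on day 2, and later days were not alike, with 14.2, 20.1 and 15 on day 10, 39.6, 61.2 and 58.7 on day 20 and 30.2, 17.8 and 57.5 on day 30. Day 2 was thus set apart from day 10 but not from day 20, and the pooled difference was 0.93 ± 0.45. Its relative Nr1d2 gave 28.6, 20.1 and 28.7 against 14.3 to 24.4 (0.50 ± 0.16). Bhlhe41, an E-box repressor, differed by 0.59 ± 0.28 with overlap, and its relative Bhlhe40 by 0.04 ± 0.16. The cryptochromes did not go with the Per genes: Cry1, with 2.97, 4.71 and 3.88 against 4.09 to 6.34, differed by -0.42 ± 0.13, and Cry2 by -0.03 ± 0.10.

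Of the 8 output genes, 7 were tested and 5 differed upward, with a median of 0.33. Beside Dbp, the D-box factor Tef did not overlap, with 43.8, 48.4 and 46.3 on day 2 against 29.1 to 41.3 later (0.33 ± 0.10). Over all genes, 1.81% lay wholly above. Hlf, the last of the D-box factors, was level, with 2.57, 2.53 and 3.00 against 2.66 to 3.23 (-0.10 ± 0.08). The deubiquitinase gene Usp2 measured 39.1, 36 and 34.8 against 14 to 37.2 (0.66 ± 0.26), the overlap again lying on day 10. Coq10b, a coenzyme Q binding protein of mitochondria, differed by 0.71 ± 0.24 and Gpt2, an alanine aminotransferase, by 0.23 ± 0.14, both with overlap. The cell cycle kinase Wee1 differed by -0.17 ± 0.19, and Tspan4 was too low to be tested, at 0.688 or less in every contralateral muscle.

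The trained muscles of the same animals were then compared in the same way, which the choice of the split had not used. Days of training and time since surgery differ along the same split there, so animals, length of training and time since surgery cannot be told apart. Of 12736 transcripts tested in the trained muscles, 306 passed an adjusted p of 0.05 (2.4%; limma, Benjamini-Hochberg), 150 higher (1.18%) and 156 lower (1.22%) on day 2. On the values as deposited, 187 were higher and 68 lower. Leaving out 1 muscle gave 629 for the first of day 2, 19 for the second, 46 for the third, 497 for the second of day 10, and 144 to 195 for any of day 20 and the first or second of day 30. None of the 8 transcripts that passed in the contralateral muscles passed in the trained ones.

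On the trained side, 1 of the 21 listed clock genes tested passed, against 2.4% of all transcripts. It was Gpt2, with a difference of 1.02 ± 0.13 (adjusted p = 0.00317). Arntl-201 measured 5.42, 6.52 and 6.64 in the trained day 2 muscles and 5.32 to 9.66 later, a difference of -0.18 ± 0.17 (adjusted p = 0.597). Dbp-201 measured 8.72, 7.89 and 19.2 against 4.08 to 18.9, a difference of 0.74 ± 0.37 (adjusted p = 0.298). Ciart-201 was high in every trained muscle, 7.04 to 24.4, above the 0 to 4.93 of the 12 contralateral ones, and day 2 differed from later days by -0.14 ± 0.33 (adjusted p = 0.855). Per2 differed by 0.50 ± 0.21 (adjusted p = 0.205). Npas2, with 0.123, 0.248 and 0.305 on day 2 against 0.634 to 1.11, had no overlap on the trained side either (2.71% of the transcripts tested there lay wholly below), but was too low there to be tested.

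**Figure D2:**
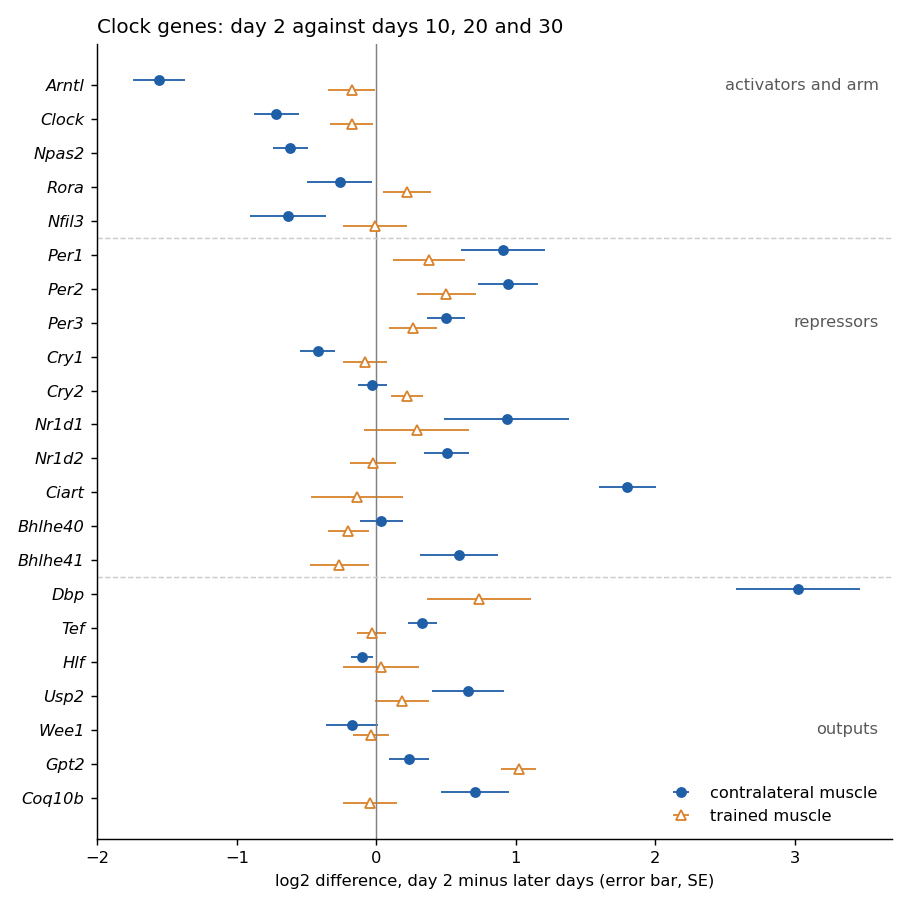
Log2 difference, day 2 minus later days, of the 22 clock genes tested, with SE, for contralateral muscles (blue circles) and trained muscles (orange triangles). The contralateral points run from -1.56 for Arntl to 3.02 for Dbp, the trained ones from -0.27 for Bhlhe41 to 1.02 for Gpt2.

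Whether the difference itself differed between the legs was computed within each animal as trained minus contralateral muscle. Of 13452 transcripts, 67 passed (0.498%), 39 higher (0.29%) and 28 lower (0.208%). For Dbp-201 the trained difference less the contralateral one was -2.28 ± 0.42, and for Arntl-201 the value was 1.38 ± 0.19. Leaving out 1 animal gave a count of 153, 4 or 11 for those of day 2, 166 for the first of day 10 and 39 to 44 for those of day 20. The single values contain the contralateral difference by which the genes were picked, so no p is given for them.

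Few transcripts passed a test of the later days among themselves in the contralateral muscles. Of 12135 transcripts, 3 passed the F test of days 10, 20 and 30 (0.0247%; limma), and 716 had an unadjusted p under 0.05. The 3 are Gstt2-202, AABR07007032.1-203 and LOC100911917-201, named here after their values were seen, and none is a clock gene. Gstt2-202, a transcript of a glutathione transferase, measured 1.03, 1.06 and 1.12 on day 20 and at most 0.0576 on days 10 and 30. Gstt2-202 and AABR07007032.1-203 reached 1 only in the day 20 muscles among these 9, so they were tested only because of the day where they were high. Among the clock genes tested the smallest adjusted p was 0.441, for Nfil3. Ciart and Tspan4 were too low in these muscles to be tested. With 3 muscles a day, even sizeable steps between later days could go undetected. Nr1d1 had means of 16.4, 53.2 and 35.2 on days 10, 20 and 30. Neither this step nor that in Per2 passed (adjusted p = 0.698 and 0.769).

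Away from the clock, the 15 largest differences in each direction were taken among named genes with a mean of at least 5 and no overlap. Of the genes that met this, 139 were higher and 51 lower. The last gene taken differed by 0.47 and the first left out by 0.47 on the higher side, and by -0.61 and -0.60 on the lower side.

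On the lower side, the kinase gene Dyrk2 (Dyrk2-201, ENSRNOG00000007821, chr7:61786309-61798730) measured 3.97, 5.69 and 4.43 on day 2 and 7.99 to 12.8 later (-0.91 ± 0.14), and 2.98 to 5.19 in the 12 trained muscles. Lrrc30, a leucine-rich repeat gene, measured 9.21, 19.2 and 10.4 against 22.2 to 40.2 (-1.19 ± 0.21), and 4.08 to 22.5 in the trained muscles. For Lrrc30 the day 2 contralateral values lay among those of the trained muscles, and for Dyrk2 they lay among them but for the second muscle, which stood above all 12. The later contralateral values lay above every trained one for Dyrk2 and above nearly all for Lrrc30. Neither passed in the trained muscles, where Dyrk2 differed by 0.20 ± 0.15 (adjusted p = 0.488) and Lrrc30 by 0.55 ± 0.35 (adjusted p = 0.418). Clec11a, a secreted lectin, measured 0.374, 0.286 and 0.327 on day 2 and 0.840 to 1.24 later (-0.62 ± 0.09), and the unnamed AABR07044759.1-201 1.04, 0.914 and 0.812 against 1.71 to 4.21 (-1.05 ± 0.17), both at low levels.

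Of the 13 listed atrophy and fasting genes, Pdk4 and Fbxo32 lay wholly below the later range on day 2 (1.08% of all genes did). Pdk4, the kinase that shuts pyruvate dehydrogenase and so spares glucose, measured 68.3, 80.2 and 49.3 on day 2. On day 10 it was 214, 292 and 242, on day 20 167, 119 and 151, and on day 30 128, 175 and 125. The contralateral difference was -1.39 ± 0.26, and that in trained muscles was -1.19 ± 0.30, which did not pass (adjusted p = 0.0554). Fbxo32, the atrophy ubiquitin ligase also called atrogin-1, measured 19.2, 14.6 and 19.8 on day 2. Its values were 21, 31.3 and 34.2 on day 10, 105, 62.5 and 52.1 on day 20 and 62.3, 51.5 and 95.1 on day 30, so that day 10 lay below every muscle of days 20 and 30, a step that did not pass the F test (adjusted p = 0.686). Its difference was -1.48 ± 0.39 on the contralateral side (-0.64 against day 10 alone) and -1.28 ± 0.28 on the trained side, where it passed (adjusted p = 0.0332), a call kept under 13 of 20 alternatives.

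Ucp3, a mitochondrial carrier tied to fatty acid use, measured 33.9, 56.0 and 19.7 on day 2 and 47.8 to 115 later. The second day 2 muscle overlapped with the lowest later one, and the difference was -1.27 ± 0.29. In trained muscles it was -1.33 ± 0.26 (adjusted p = 0.0237). Angptl4, which inhibits lipoprotein lipase, measured 0.411 to 1.27 against 1.14 to 4.17, a difference of -0.93 ± 0.26 and in trained muscles of -0.59 ± 0.18 (adjusted p = 0.0881). The other 9 of the 13 listed atrophy and fasting genes had smaller differences and overlapped, among them Trim63, the other atrophy ligase, at -0.25 ± 0.14, Cpt1a at -0.10 ± 0.13 and Ppargc1a at -0.18 ± 0.21. The list as a whole had 10 members below 0 and a median of -0.24. In the trained muscles its median was 0.00. Of its 13 members, 2 passed there and were lower, Fbxo32 and Ucp3, against 1.22% of all transcripts. Gadd45a, a stress-induced gene, passed in the other direction there (1.18% of all transcripts did). Its difference was 2.04 ± 0.49 (adjusted p = 0.0434) against 0.21 ± 0.36 on the contralateral side. Mstn, the growth inhibitor myostatin, had 1.35 ± 0.38 in the trained muscles (adjusted p = 0.0759) and 0.17 ± 0.23 in the contralateral ones.

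**Figure D3:**
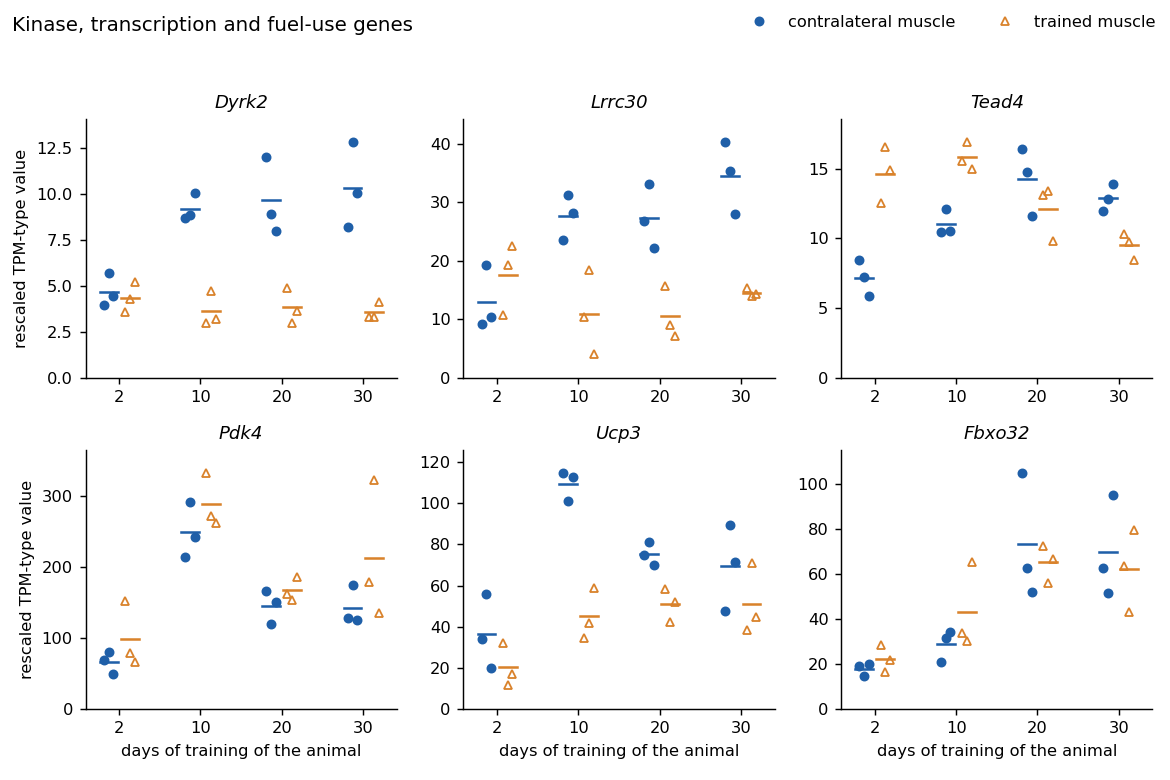
Rescaled TPM-type value of Dyrk2, Lrrc30, Tead4, Pdk4, Ucp3 and Fbxo32 in every muscle by days of training, blue circles for contralateral and orange triangles for trained muscles, with bars at the mean of 3. In the upper row day 2 has the lowest mean in the contralateral muscles and not in the trained ones, while in the lower row day 2 has the lowest mean in both legs.

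Genes of the extracellular matrix had differences below 0. This held for all 21 tested of the list, with a median of -0.55 and a range from -1.0 to -0.05. None passed, and 4 did not overlap (1.08% of all genes lay wholly below), while others were near level, such as the basement membrane collagens Col4a1 at -0.15 ± 0.13 and Col4a2 at -0.10 ± 0.16. Col3a1, a fibrillar collagen, measured 36.4, 22.4 and 38.1 against 43.6 to 84.2 (-1.0 ± 0.20), and Fn1, fibronectin, 1.83, 2.44 and 2.19 against 2.59 to 7.48 (-0.98 ± 0.21). Fbn1, fibrillin, measured 2.07 to 2.60 against 2.93 to 5.33 (-0.72 ± 0.13), and Col14a1, a fibril-associated collagen, 0.440 to 0.967 against 0.996 to 2.36 (-0.72 ± 0.15). Col1a1, at 8.8 to 29.3 against 25.1 to 63.8, overlapped with -0.93 ± 0.30. Mmp2, a matrix protease outside the list, measured 6.90, 4.71 and 6.57 against 8.07 to 12.2 (-0.71 ± 0.13).

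On the trained side the matrix genes varied. Of the 21, the proteoglycan Dcn and the matrix protein Sparc passed, both lower on day 2 (1.22% of all transcripts passed and were lower), by -0.86 ± 0.21 (adjusted p = 0.0433) and -0.88 ± 0.16 (adjusted p = 0.0141). Mmp2, which is not in the list, also passed, at -1.07 ± 0.15 (adjusted p = 0.00535), whereas Col3a1 (-0.39 ± 0.29, adjusted p = 0.487) and Fbn1 (0.11 ± 0.16, adjusted p = 0.756) did not. In the contralateral muscles, markers of fibroblasts, the cells that make matrix, moved with the list. All 5 of that marker list, 3 of which (Col1a1, Dcn and Lum) are also in the matrix list, were below 0 with a median of -0.77, and their summed level was 52.3 to 76.1 on day 2 and 73.3 to 172 later, none of them at 0 in all muscles. Of macrophage markers, 7 of 8 were tested there and all 7 were below 0 (median -0.45), their sum being 9.48 to 12.5 against 9.41 to 25.8. In the trained muscles the median was -0.28 for the fibroblast markers and -0.05 for the macrophage markers. The part of these cells in the result was not tested, and in pieces of muscle tissue fewer cells of a type and less RNA per cell cannot be told apart. The class II antigen presentation genes RT1-Da, RT1-Ba and Cd74 were also lower in the contralateral muscles, with overlap, by -0.71 ± 0.26, -0.66 ± 0.23 and -0.60 ± 0.21.

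The remaining leading genes of the lower side included transcriptional regulators. Yap1, a coactivator, measured 3.69, 4.16 and 6.13 against 6.32 to 12.3 (-0.83 ± 0.19). This is the transcript Yap1-205, and with values summed per gene the difference was -0.19. Tead4, a DNA-binding partner of Yap1, measured 8.44, 7.22 and 5.84 against 10.5 to 16.4 (-0.75 ± 0.14). Wsb1, a ubiquitin ligase adaptor, differed by -0.80 ± 0.15, Pnrc1, a nuclear receptor coactivator, by -0.74 ± 0.16, and Fstl1, a secreted follistatin-like glycoprotein, by -0.61 ± 0.11. Medag, a gene named for adipogenesis, measured 2.67, 3.03 and 2.50 against 3.50 to 7.10 (-0.80 ± 0.15). It was lower in the trained muscles too, by -1.03 ± 0.17 (adjusted p = 0.0106), while Yap1, Tead4, Wsb1, Pnrc1 and Fstl1 did not pass there.

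The leading genes of the higher side included 3 tubulins. Tubb4b, a beta tubulin, measured 121, 112 and 95.7 on day 2 and 64.7 to 82.4 later (0.57 ± 0.11). Tuba8 measured 192, 241 and 189 against 125 to 156 (0.54 ± 0.10), and Tuba4a 408, 451 and 370 against 252 to 349 (0.48 ± 0.10). Tubulin genes are alike in sequence, and reads may be split among them. Others, looked at after these values were seen, were nearer 0: Tubb5 at 0.30 ± 0.13, Tuba1b at 0.16 ± 0.10, Tuba1a at -0.05 ± 0.12 and Tubb2a at -0.06 ± 0.18. In the trained muscles Tubb4b measured 210, 266 and 247 on day 2 against 37.3 to 111, a difference of 2.04 ± 0.31 (adjusted p = 0.00651), and Tuba8 differed by 0.80 ± 0.17 (adjusted p = 0.0320). Tuba4a, with 1.29 ± 0.39, did not pass there (adjusted p = 0.0897).

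Some of the other higher genes code for mitochondrial proteins. Cox6a1, a cytochrome oxidase subunit, measured 40.7, 45.5 and 40.8 against 23.4 to 33.8 (0.58 ± 0.11). Timm10, a chaperone of mitochondrial import, measured 27.2 to 32.3 against 16.6 to 25.5 (0.48 ± 0.12). Neither passed in the trained muscles. The 13 mitochondrially encoded mRNAs showed no such shift, with a median of -0.04 and no member outside the later range. Their share of all values was 27.8% to 31.7% on day 2 and 28.0% to 43.7% later, the highest being the first muscle of day 30.

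The other leading genes of the higher side were Rpl35a, Ufsp1, Myl9, Slc29a2, Ankrd9, Prkab1 and Hras. Slc29a2, a nucleoside transporter, measured 5.50, 6.48 and 6.66 against 2.95 to 5.20 (0.48 ± 0.13) and was also higher in the trained muscles, by 0.92 ± 0.22 (adjusted p = 0.0449), a call that was kept under only 6 of 19 alternatives. Prkab1, a subunit of the energy sensor AMPK, measured 14.1, 18.3 and 14.5 against 8.43 to 13.2 (0.47 ± 0.12), with 0.53 ± 0.14 in the trained muscles (adjusted p = 0.0692). Hras, a signalling GTPase, differed by 0.47 ± 0.11, Ufsp1, a protease of the ubiquitin-like modifier Ufm1, by 0.63 ± 0.12, and Ankrd9 by 0.48 ± 0.15. Rpl35a, a ribosomal protein, with 4.35, 7.76 and 4.29 against 0.463 to 4.25, differed by 1.04 ± 0.36 and is uncertain, since ribosomal protein genes have near-identical copies. Myl9, a myosin light chain of smooth muscle, differed by 0.59 ± 0.16.

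**Figure D4:**
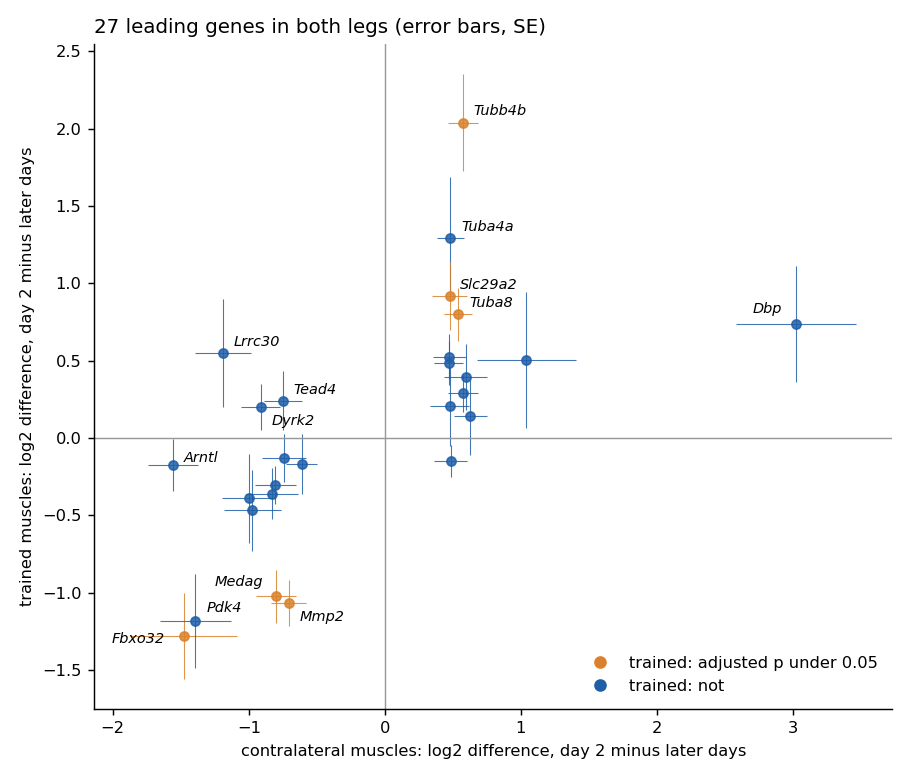
Log2 difference, day 2 minus later days, in contralateral muscles (x axis) and trained muscles (y axis) for 27 leading genes, with SE on both, orange where the trained difference passed an adjusted p of 0.05. The x values chose the genes. Fbxo32, Pdk4, Medag and Mmp2 lie below 0 on both axes and the tubulins above 0 on both, while Arntl, Dyrk2 and Lrrc30 are far from 0 on the x axis only.

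Over all transcripts, those set apart in the contralateral muscles were looked up in the trained ones. Of the 202 above the later range, 197 were tested in trained muscles, 8 passed there in the same direction (4.06%, against 1.18% of all) and none in the other. Of the 121 below it, 116 were tested and 7 passed in the same direction (6.03%, against 1.22% of all), again none in the other. The 15, named here because of these values, include Tubb4b, Tuba8, Slc29a2, the ribosome-bound Rack1 and Serbp1 on the higher side, and Fbxo32, Mmp2, Medag, the laminin Lamb1, the Wnt inhibitor Sfrp4, Dock1 and the transporter Slco2b1 on the lower side. The legs of an animal share that animal, so these are not independent animals. Both sets were chosen by the contralateral values that the split used. Some of the lower set, Sfrp4 among them, were tested there only because of their later values. These shares are therefore a description and no replication.

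Markers of other tissue were measured beside these results. Of the smooth muscle markers, 3 of the 4 tested were above 0 and all overlapped, with Tagln at 31.5 to 39.9 against 16.3 to 34.9 (0.73 ± 0.20), Acta2 at 0.49 ± 0.24, Myh11 at 0.46 ± 0.22 and Des, which fibres express too, at -0.10 ± 0.11. The sum over all 5 of that list was 1835 to 1854 on day 2 and 1763 to 2562 later. Since it includes Des, this sum is no measure of smooth muscle alone, and Tagln made up at most 39.9 of it on day 2. Of the Schwann cell markers all 4 tested were above 0 (median 0.27) and overlapped, the sum over all 5 listed being 5.99 to 11.8 against 5.49 to 12.5. The haemoglobin transcripts Hba-a2 and Hbb were higher by 0.36 ± 0.27 and 0.38 ± 0.25, with later values on both sides of them. Endothelial markers differed little (5 of 5 below 0, median -0.07), tendon markers by a median of -0.18 (4 of 4 below 0) and the 3 tested adipocyte markers by -0.48. Only 1 of the 6 lymphocyte markers was in the table, at 0.246 or less in every muscle, and 1 of 4 satellite cell markers was high enough to test. Fibre genes defined every library, with skeletal actin, Acta1, at 22156 or more in each contralateral muscle. The part of these cells in the results above was not tested.

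Stress genes set 2 libraries apart. The second day 2 muscle and the first day 10 muscle had Ddit4 at 96.3 and 37.5 against 2.92 to 10.6 in the other 10, and Zfp36 at 79.9 and 36.3 against 4.45 to 12. With both left out, 5 transcripts passed, among them Arntl and Ciart but not Dbp-201, whose difference was 3.27 there. The glucocorticoid-responsive list had 14 of 15 members above 0 (median 0.28), and the immediate early list 12 of 13 (median 0.35), with no member of either outside the later range. For Ddit4 (0.98 ± 0.81) and Zfp36 (0.90 ± 0.63) the difference rests on the second day 2 muscle, since the other day 2 values, 4.51 and 4.64 for Ddit4, were those of later muscles. Fkbp5, with 0.30 ± 0.21, and Klf9, with 0.32 ± 0.10, overlapped as well.

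The remaining lists had medians from -0.19 to 0.10, against 0.02 for all genes, and no tested member outside the later range. Heat shock proteins had a median of 0.06, with Hspb1 at 0.15 ± 0.22 and Dnajb1 at 0.00 ± 0.18. Fast fibre genes had 0.06, with Myh4 at 0.07 ± 0.15 and Pvalb, a calcium buffer, at 0.32 ± 0.13. In slow fibre genes it was -0.19, with Myh7 at -0.45 ± 0.22 and Atp2a2, the slow calcium pump, at -0.48 ± 0.20. Denervation-responsive genes had a median of -0.02, with Chrna1, a subunit of the acetylcholine receptor, at -0.11 ± 0.27 and Myog at -0.02 ± 0.29. Interferon and antigen presentation genes had -0.07, with the transcription factor Irf1 at -0.08 ± 0.10, and cholesterol and fatty acid synthesis genes 0.07. For glucose and glycogen genes it was 0.10, with Hk2, a hexokinase, at 0.28 ± 0.11 and Slc2a4, the insulin-regulated glucose carrier, at 0.12 ± 0.08. By contrast the trained muscles, over the same split, had Myh4 higher on day 2 by 5.07 ± 0.76 (adjusted p = 0.00535).

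**Figure D5:**
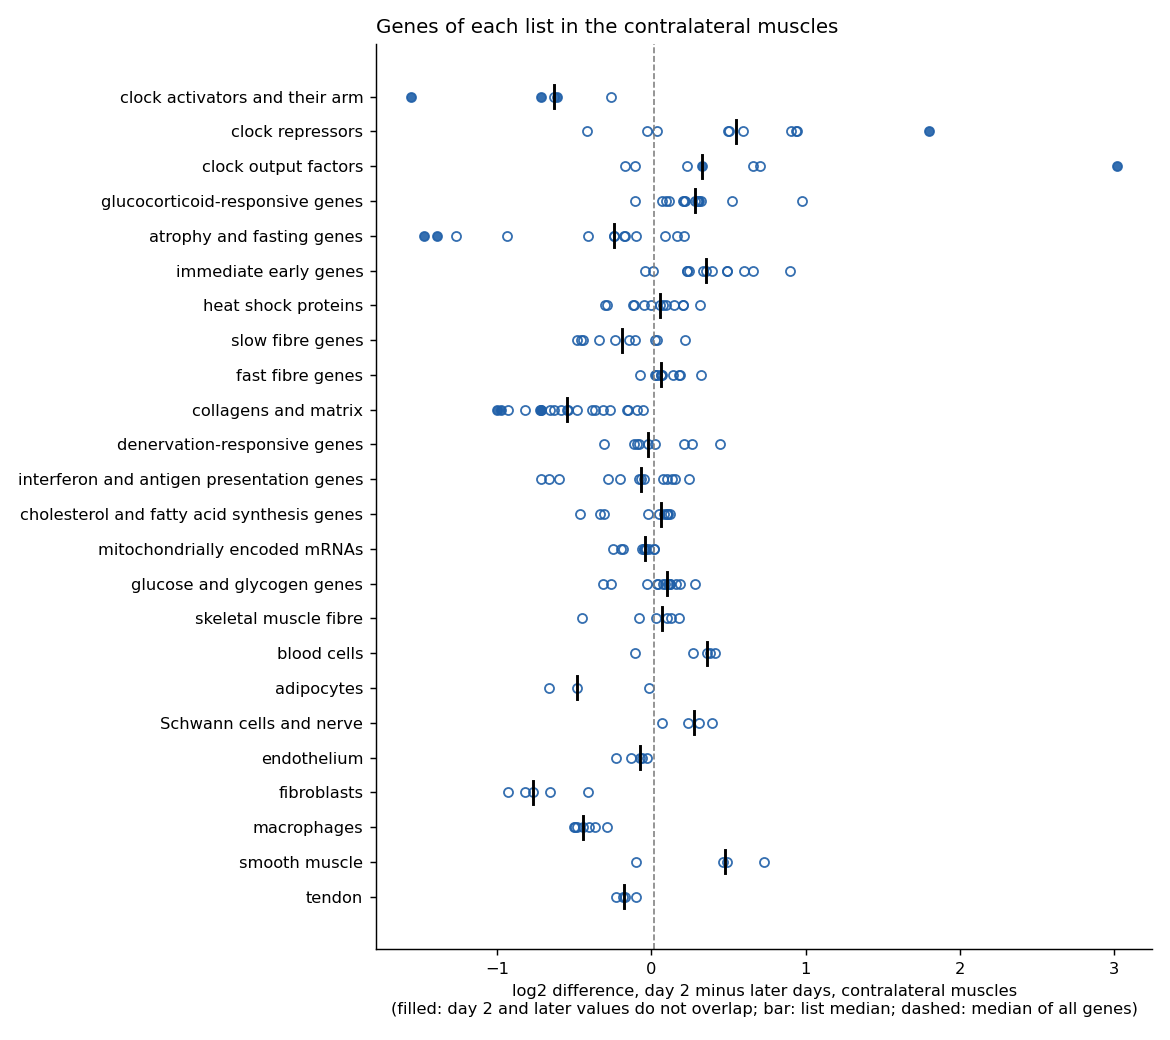
Log2 difference, day 2 minus later days, in the contralateral muscles for each tested gene of every list with at least 3 tested genes, filled where the day 2 and later values do not overlap, with the list median as a bar and the median of all genes dashed. Clock, matrix, fibroblast, macrophage and some fuel-use genes lie away from the dashed line, as do most adipocyte, smooth muscle, blood and immediate early genes. Fast fibre, heat shock and glycogen genes lie around it, and slow fibre genes have a median somewhat below it.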

How the data were processed

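RNA was sequenced from both tibialis anterior muscles of 12 rats, 3 per time point. The authors trimmed the reads, aligned them with STAR in Partek Flow to Rnor_6.0 (rn6 in the submitters' processing notes) and quantified them to Ensembl transcripts. The deposited transcript values are treated as TPM-type, since each of the 24 libraries adds up to 634431. Depth and counts are therefore not recoverable. DESeq2, which the authors name, was not run here. The deposited gene-level values and the authors' own fold changes and p-values were not used.

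Values were divided by median-of-ratios factors from the 16230 transcripts above 0 in all libraries (0.778 to 1.14). Transcripts with at least 1 in at least 3 of the samples fitted were kept, and log2(value + 1) was fitted with limma 3.58.1 (R 4.3.3), with Benjamini-Hochberg adjustment and a threshold of 0.05. Contralateral day 2 (n = 3) was compared with later days (n = 9), trained muscles likewise, the later days by an F test, and the legs by differences within an animal. The script was tested on simulated data. Samples of a group are separate animals.

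The split, the gene lists and the naming rule were chosen with earlier results of these data known. Named are, with 1 transcript a gene, the highest, the 15 largest differences each way among genes with a mean of at least 5 and no overlap (names beginning AABR, AC, LOC or RGD left out), all clock genes, and of other lists the members that passed or did not overlap with 2 to 4 others. Some genes that the rule or the lists take in are not reported here, though they stayed in every fit and in the counts over all transcripts. No 2 of the 276 pairs of libraries were identical. Deviations from the group means correlated between the legs of an animal (median r 0.143, 12 pairs) and not between muscles of the same number on different days (-0.02, 18 pairs). Tables and plots used Python 3.11.15, numpy 2.4.6, pandas 2.3.3 and matplotlib 3.10.9. Promoter windows are RefSeq's, on GRCr8, another build than that of the table, and were matched by symbol. Alternatives were the values as deposited, a pseudocount of 0.1, no filter, a mean of at least 10, sums per gene, an intensity trend, other groupings of the days, the replicate number as a block and each muscle left out.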

Additional observations from a re-analysis of the deposited data

Results flagged for a closer look

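For 52 transcripts named by the rule, the 9 later contralateral muscles were searched for 1 value far from the rest, and none was found. For 5 of them the difference between day 2 and later days was of another size in the trained than in the contralateral muscles, by limma on differences within an animal. Over all 13452 transcripts, 67 passed this test (0.498%). The values, trained less contralateral on the log2 scale, were -2.28 for Dbp-201, 1.38 for Arntl-201, 1.11 for Dyrk2-201, 1.74 for Lrrc30-201 and 1.47 for Tubb4b-201. In 4 of the 5 the contralateral difference was the larger in size, and in Tubb4b the trained one. The genes were picked by their contralateral difference, which enters these values. Neither the count of 5 nor the values are therefore independent evidence, and the p-values are not given.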

How the results depend on the processing

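The contralateral count of 8 was 14 with a mean of at least 10, 27 with values summed per gene, 21 with all 24 muscles in 1 fit, 1 against day 20 alone, 5 without the 2 libraries with high stress genes (chosen after seeing the data), and 0 to 28 when 1 muscle was left out. With a pseudocount of 0.1 it was 8 again, all lower, while Dbp-201 and Ciart differed by 3.58 and 3.14 without passing. Under all alternatives run, Dbp-201 differed by 2.27 or more and Ciart by 1.49 or more. With the replicate number as a block, 3 passed, among them Arntl and Ciart, 306 became 204 in the trained muscles and 3 became 0 between later days. Same-numbered muscles of different days share only a number (2 of 18 pairs with r over 0.1). The trained count of 306 was 483 with a mean of at least 10, 517 with sums per gene, 604 with 4 groups in the fit and 19 to 629 with 1 muscle left out. The 3 transcripts between later days became 0 with a mean of at least 10 or an intensity trend, 1 with sums per gene and 0 to 1 with 1 muscle left out (limma; where none passed, 258 to 885 had an unadjusted p under 0.05). The count of 67 between the legs was 38 on the values as deposited (28 higher, 10 lower), 207 with a mean of at least 10 and 152 with sums per gene. It was 104 with an intensity trend, 74 with the legs not paired within an animal and 4 to 166 with 1 animal left out. The causes were not tested. Of the 52 named transcripts, 49 kept the sign of their contralateral difference under all alternatives run, the exceptions being Cry2, Bhlhe40 and Wee1. Trained differences were less stable, and 36 of the 51 looked at kept their sign. Depth is unknown, so low transcripts cannot be weighed by it.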
